A study of Rattus norvegicus with 24 samples.

Results

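The aryl hydrocarbon receptor and its direct target genes were followed through the lungs of rats in a smoky coal lung cancer model. The set held 7 genes, chosen by name from the 30667 gene rows of the count table: the receptor Ahr, its dimer partner Arnt, the repressor Ahrr, the cytochromes P450 Cyp1a1, Cyp1a2 and Cyp1b1, and Tiparp. All 7 were found, each in 1 row, and all passed the filter on low values. The table covered 24 samples of lung tissue, whose titles join a letter (A, B, C or G) with a number from 1 to 6, so that each letter had 6 samples. Every sample carried the same treatment label, smoky coal, and no label explained the letters or the numbers or named an untreated control, a strain or an age. The letters and numbers are therefore compared as they stand, and none is called a control. Nothing stated that samples sharing a letter came from separate animals, so p-values measure the spread between these samples, which may be technical.

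The receptor is a ligand-activated transcription factor that waits in the cytoplasm in a complex with heat shock proteins. Polycyclic aromatic hydrocarbons, which coal smoke contains, bind it, after which it enters the nucleus, pairs with Arnt and binds xenobiotic response elements near its target genes. Cyp1a1, Cyp1a2 and Cyp1b1 encode enzymes that oxidise these hydrocarbons, in part to reactive products that can damage DNA. Ahrr competes for Arnt and for the same elements, and Tiparp encodes an ADP-ribosyltransferase that modifies the receptor. Both are induced by the receptor and dampen it, so their transcripts serve, with those of the Cyp1 genes, as readouts of receptor activity.

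The element's core is GCGTG, and its longer form is TNGCGTG. Both were searched on both strands in rat promoters from RefSeq (build GRCr8), each 300 bases long, from 250 bases before the gene's start to 50 after it. Of the 7 genes, 6 had an entry, and Cyp1a1 had none. The promoters shown are those of the repressor and of Cyp1b1, which varied together over samples, and that of Tiparp, which differed least of the targets between letters. They lie at chr1:30821969-30822268, chr6:21094315-21094614 and chr2:152063519-152063818, all on the plus strand. Capitals mark GCGTG, or CACGC where the core is on the other strand.
Ahrr: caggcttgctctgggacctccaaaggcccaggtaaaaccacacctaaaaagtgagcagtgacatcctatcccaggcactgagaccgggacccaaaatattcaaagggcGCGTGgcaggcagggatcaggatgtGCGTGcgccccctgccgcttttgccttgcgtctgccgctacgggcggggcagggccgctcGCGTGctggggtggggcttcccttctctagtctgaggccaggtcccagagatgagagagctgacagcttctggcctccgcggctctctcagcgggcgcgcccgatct
Cyp1b1: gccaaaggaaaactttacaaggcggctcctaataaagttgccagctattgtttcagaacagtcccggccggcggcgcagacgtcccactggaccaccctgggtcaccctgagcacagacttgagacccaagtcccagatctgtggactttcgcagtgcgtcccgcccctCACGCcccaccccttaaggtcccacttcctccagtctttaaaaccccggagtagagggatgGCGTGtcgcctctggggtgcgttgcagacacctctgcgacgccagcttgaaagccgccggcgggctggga
Tiparp: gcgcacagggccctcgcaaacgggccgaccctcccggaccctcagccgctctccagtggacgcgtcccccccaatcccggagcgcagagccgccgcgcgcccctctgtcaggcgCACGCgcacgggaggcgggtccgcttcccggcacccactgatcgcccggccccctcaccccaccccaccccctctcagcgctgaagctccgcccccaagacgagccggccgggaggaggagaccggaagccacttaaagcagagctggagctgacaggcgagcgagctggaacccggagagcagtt

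The Ahrr promoter held 3 cores, beginning 142, 117 and 57 bases before the start and all on the gene's own strand. Cyp1b1 held 2 cores, 1 on each strand, beginning 81 and 20 bases before the start. Tiparp held 1, on the other strand, 136 bases before the start, and Arnt also held 1. Ahr and Cyp1a2 held 0 in this window. The longer form, which contains the core, occurred once each in Ahrr and Cyp1b1. Among all 33469 promoters of the same length, 29.7% held at least 1 core, 10.2% at least 2 and 3.59% at least 3, and 4.89% held the longer form. A match describes the letters only and shows no binding.

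Values are normalized read counts as deposited, which sum to between 61717516 and 66007148 per sample. Markers of lung were present throughout, and the 6 alveolar type 2 genes summed to between 1107150 and 1656080 normalized counts per sample. The sample A4 stood apart, with scores (the mean log2 deviation of a list's genes from their means over the 24 samples) of 5.86 for squamous epithelium or oesophagus, 5.21 for skeletal muscle and 5.43 for cardiac muscle, and B4 had a skeletal muscle score of 3.22. Results are given with and without these samples where leaving them out changes a call. The samples are whole tissue, in which fewer cells of a type and less RNA per cell cannot be told apart. Levels are compared between samples, not between genes.

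The receptor and its partner differed between letters by less than the spread within a letter. The mean of Ahr was 6849 ± 1268 normalized counts for A and 7085 ± 1949 for B (SD, n = 6), and 7453 ± 1987 for C and 6780 ± 824 for G. The 4 letters overlapped, and the range within a letter was far wider than the difference between means, as C ran from 3819 in C3 to 9507 in C6. Against A, G differed in Ahr by -0.003 on the log2 scale with a 95% interval of -0.40 to 0.39, so a change of either sign up to that size was not detectable with these samples. Arnt, which also pairs with the hypoxia factors, was the steadiest member, and all 24 samples lay between 5891 and 7177. Its log2 differences between G and A, B and C were 0.003, -0.03 and -0.02, each with an SE of 0.050.

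The repressor Ahrr was lower in G than in each other letter, by 5.14-fold against A, 5.73-fold against B and 5.05-fold against C. In A its values were 269.7, 267.9, 272.7, 559.8, 583.3 and 418.1 normalized counts for numbers 1 to 6. In B they were 342.1, 321.2, 445.2, 629.9, 535.8 and 371.9, and in C 259.0, 227.6, 286.2, 552.7, 511.8 and 496.4. In G they were 82.5, 83.8, 93.9, 97.8, 45.4 and 58.3. The highest G sample was below the lowest of the other 18, so G did not overlap any letter, whereas A, B and C overlapped one another. Only 6 of the 30667 rows, 0.0196%, had every G sample below every other sample.

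On the log2(normalized count + 1) scale, Ahrr was lower in G, with differences of -2.31 against A, -2.51 against B and -2.28 against C, each with an SE of 0.26. The adjusted p-values, from limma with Benjamini-Hochberg adjustment over all rows, were 0.000165, 3.50e-05 and 0.000210, and that of the F test over the 4 letters was 4.01e-05. In each of the 3 contrasts Ahrr had the smallest p-value of all rows. It was the 1 member of the 7 called, against a background of 0.00652% of rows called in G against A, 0.00326% in G against B, 0.00652% in G against C and 0.00652% in the F test. The 3 contrasts share the G samples and are not independent. Letters accounted for 84.4% of the variance of Ahrr over samples, numbers for 7.07% and the rest for 8.56%, where the medians over all genes were 9.45%, 37.1% and 48.9%.

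**Figure D1:**
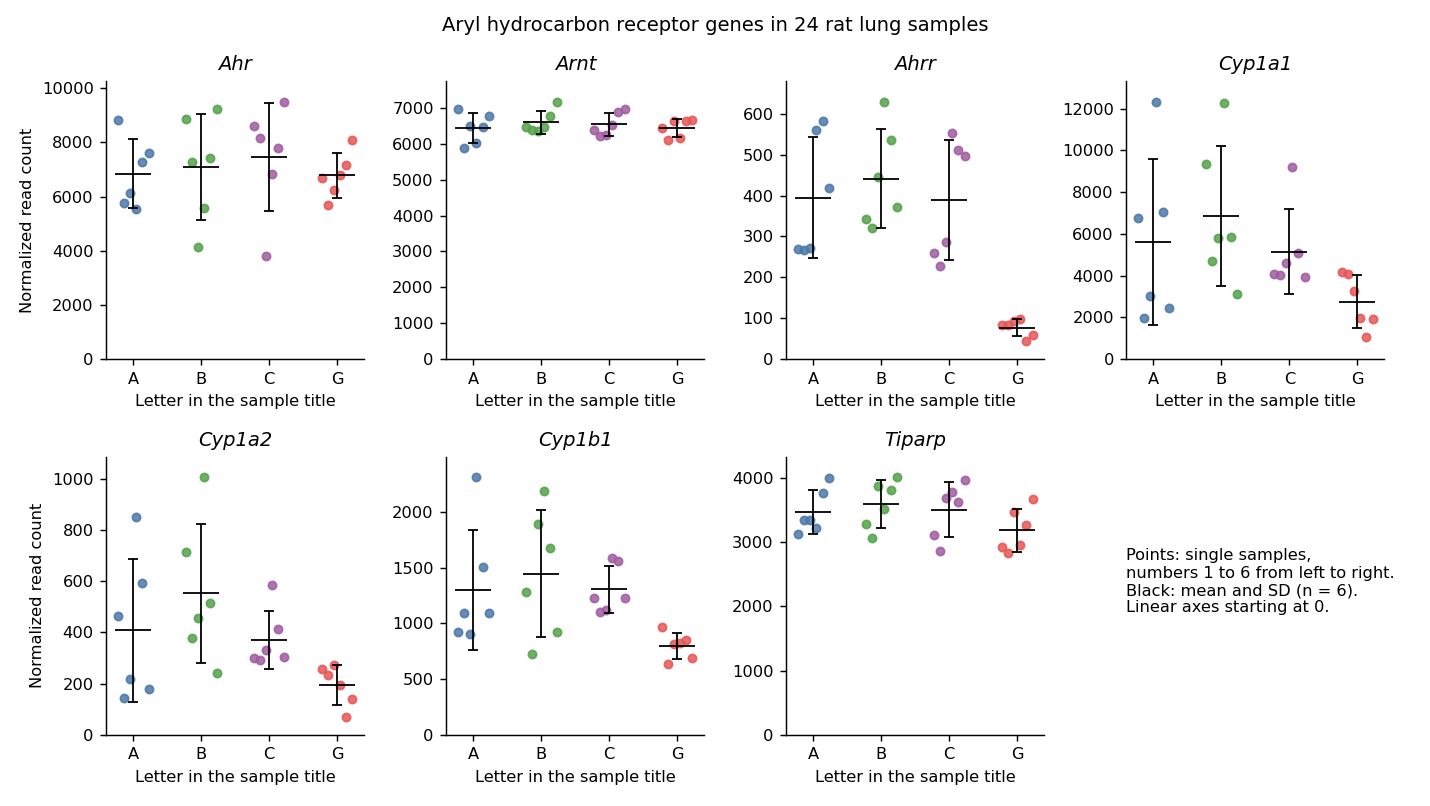
Normalized read counts (linear axes from 0) of the 7 genes in each sample, by title letter, with numbers 1 to 6 from left to right and black bars for the mean and SD of 6 samples. The 6 G samples of Ahrr lie between 45.4 and 97.8, all below the lowest other sample at 227.6, while Ahr, Arnt and Tiparp overlap between letters.

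The hydrocarbon-oxidising enzymes had lower mean levels in G as well, but none passed the test over all rows. Cyp1a1, the enzyme most used as a marker of receptor activation, had 6780, 1982, 3031, 12331, 7049 and 2463 normalized counts in A1 to A6. It had 9354, 4678, 5822, 12273, 5852 and 3106 in B, and 4059, 4022, 4593, 9198, 5067 and 3953 in C. In G it had 4160, 4092, 3284, 1956, 1080 and 1921. The sample numbered 4 was the highest in A, B and C but not in G, and G overlapped every other letter. The means (SD, n = 6) were 5606 ± 3958 for A and 6848 ± 3360 for B, and 5149 ± 2030 for C and 2749 ± 1279 for G. The log2 differences of G were -0.88, -1.33 and -0.99 (SE 0.41), with unadjusted limma p-values of 0.0419, 0.00338 and 0.0234 and adjusted p-values of 0.589, 1.0 and 1.0. Without the samples numbered 4, an alternative chosen after seeing the data, the log2 differences were -0.52, -1.06 and -0.74.

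Cyp1a2, the neighbouring gene of the same subfamily, averaged 408 ± 279 for A and 552 ± 271 for B (SD, n = 6), and 369 ± 114 for C and 194 ± 77.0 for G. Its G values were 257, 232, 272, 195, 70.5 and 139, and the lowest C value was 291, so G and C did not overlap. It overlapped A, where A2 had 144 and A6 had 180, and B, where B6 had 243. The log2 differences of G were -0.90, -1.49 and -1.01 (SE 0.40), and the adjusted limma p was 0.569 against A and 1.0 against B and C. Reads from this gene and Cyp1a1, its close paralog, may have been divided uncertainly between them by the counting.

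Cyp1b1, which is expressed mainly outside the liver, had 921, 1092, 900, 2311, 1505 and 1090 normalized counts in A, and 1285, 726, 1890, 2184, 1675 and 918 in B. It had 1227, 1106, 1118, 1587, 1559 and 1232 in C, and 967, 631, 816, 820, 849 and 693 in G. Here too the sample numbered 4 was the highest in A, B and C. G lay wholly below C but overlapped A and B. Every G sample below every C sample was found for 0.150% of all rows. The log2 differences of G were -0.64, -0.77 and -0.71 (SE 0.23), with unadjusted limma p-values of 0.0112, 0.00293 and 0.00544 and adjusted p-values of 0.469, 1.0 and 1.0. In all, 4 of the 7 members had an unadjusted p under 0.05 in each G contrast, Ahrr and the 3 enzymes, where 8.15%, 3.67% and 4.03% of all rows did against A, B and C.

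Tiparp had the smallest differences among the targets. It averaged 3468 ± 343 for A and 3595 ± 370 for B (SD, n = 6), and 3509 ± 423 for C and 3188 ± 333 for G, and the letters overlapped. The log2 differences of G were -0.12, -0.17 and -0.14 (SE 0.088), with unadjusted limma p-values of 0.180, 0.0616 and 0.137. That fit had letters alone, and numbers accounted for 67.5% of the variance of Tiparp, so its SE includes that spread. The 95% interval against A ran from -0.30 to 0.06, which does not reach the differences measured for Ahrr.

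**Figure D2:**
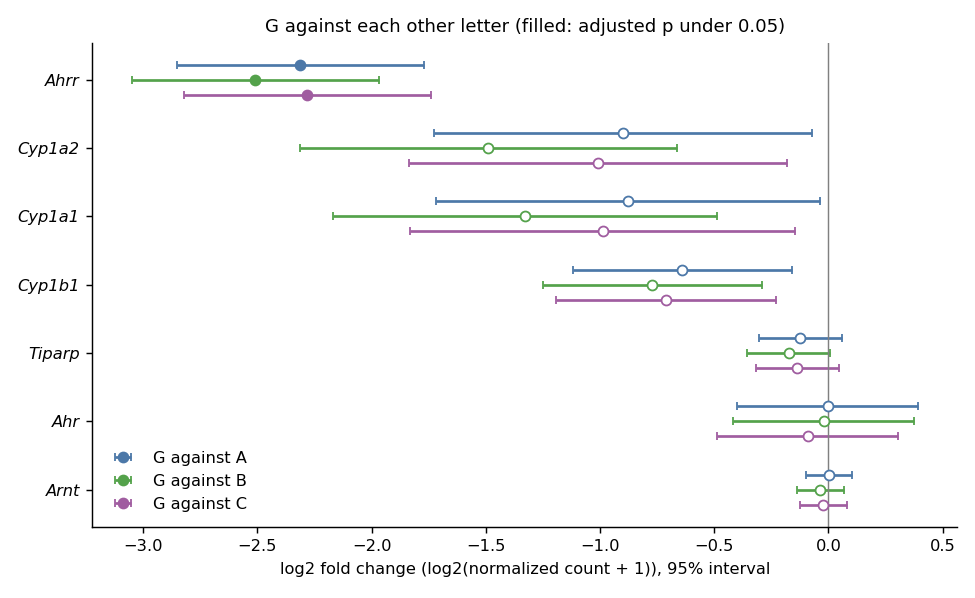
Log2 fold change of G against A, B and C for each gene, on the log2(normalized count + 1) scale, with 95% intervals from the fit over all 24 samples, filled where the adjusted p is under 0.05. Ahrr alone has filled points, at -2.31, -2.51 and -2.28, and the points of Ahr and Arnt lie near 0.

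The difference of Ahrr between G and the other letters was larger than that of each other member within the same samples. The log2 ratio of Ahrr to another member was formed in each sample and compared between letters by a two-sided exact permutation test over the 924 arrangements of 12 samples, the smallest possible p being 0.00216. All 18 ratios, 6 genes by 3 contrasts, were lower in G, with Benjamini-Hochberg adjusted p-values from 0.00278 to 0.0108. Ahrr was chosen with its result between these letters known, so these p-values are no separate evidence of its lower level. Against Cyp1b1 the log2 ratio of G differed by -1.67, -1.74 and -1.57 from that of A, B and C, and the G samples did not overlap the others. Against Cyp1a1 the differences were -1.43, -1.18 and -1.29, with overlap against A and B. Against Ahr itself they were -2.31, -2.49 and -2.19.

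Among A, B and C, 0 of the 7 genes was called by limma in any of the 3 contrasts, against a background of 0% of rows, and 0 had an unadjusted p under 0.05, where 3.58% of all rows did for B against A, 2.98% for C against A, and 1.82% for C against B. The largest of these differences was for Cyp1a2, 0.59 higher in B than in A on the log2 scale, with a 95% interval of -0.24 to 1.42. For Ahrr the differences were 0.20 for B against A, -0.03 for C against A and -0.23 for C against B. The interval of Cyp1a1 for B against A reached 1.29, and the absence of a call does not show equal levels.

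The title numbers separated the members in another way. With the letter in the model, 3 of the 7 genes differed among the 6 numbers at an adjusted p under 0.05 (limma F test), where 31.5% of all rows did, so a count of 3 is near the background. Tiparp passed with an adjusted p of 0.000497. It was highest in number 6 in each letter, at 4005, 4012, 3964 and 3669 normalized counts for A, B, C and G, and number 2 had 3342, 3064, 2871 and 2839. Ahr passed with an adjusted p of 0.00303, and number 6 had 7598, 9252, 9507 and 8100 where number 3 had 6121, 4126, 3819 and 6233. Cyp1b1 passed with 0.0194, and it did not without A4 and B4 (0.107) or without the samples numbered 4 (0.0941). Numbers accounted for 65.8% of the variance of Ahr, 63.4% of that of Arnt and 67.5% of that of Tiparp, above the 37.1% median of all genes, and letters for 1.20%, 5.12% and 17.3%.

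The other members did not pass the test over numbers when G was included. The adjusted p was 0.0559 for Arnt, 0.0726 for Cyp1a2, 0.0839 for Ahrr and 0.0990 for Cyp1a1. In the 18 samples of A, B and C alone, 28.1% of rows passed, and Ahrr (0.000377), Cyp1a1 (0.00165) and Cyp1a2 (0.00268) did so too. In those letters Ahrr was at least 371.9 in every sample numbered 4, 5 or 6, and at most 342.1 in every sample numbered 1 or 2. Number 3 fell on either side, at 272.7 in A, 445.2 in B and 286.2 in C. In G the samples numbered 5 and 6 had the lowest Ahrr, 45.4 and 58.3. A test of the number effects in G against those in A, B and C was added after seeing the data (limma F test with 5 and 10 degrees of freedom before pooling over genes). At an adjusted p under 0.05 it called 0 of the 7 members, where 0.111% of all rows were called. Unadjusted, 3 of the 7 members and 8.25% of all rows were under 0.05, with p-values of 0.000201 for Ahrr, 0.000695 for Cyp1a1 and 0.00241 for Cyp1a2 (limma, adjusted p-values of 0.0953, 0.182 and 0.295). With sample weights, and without B2 or B6, Ahrr did pass (limma, adjusted p-values of 0.0297, 0.0308 and 0.0360).

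**Figure D3:**
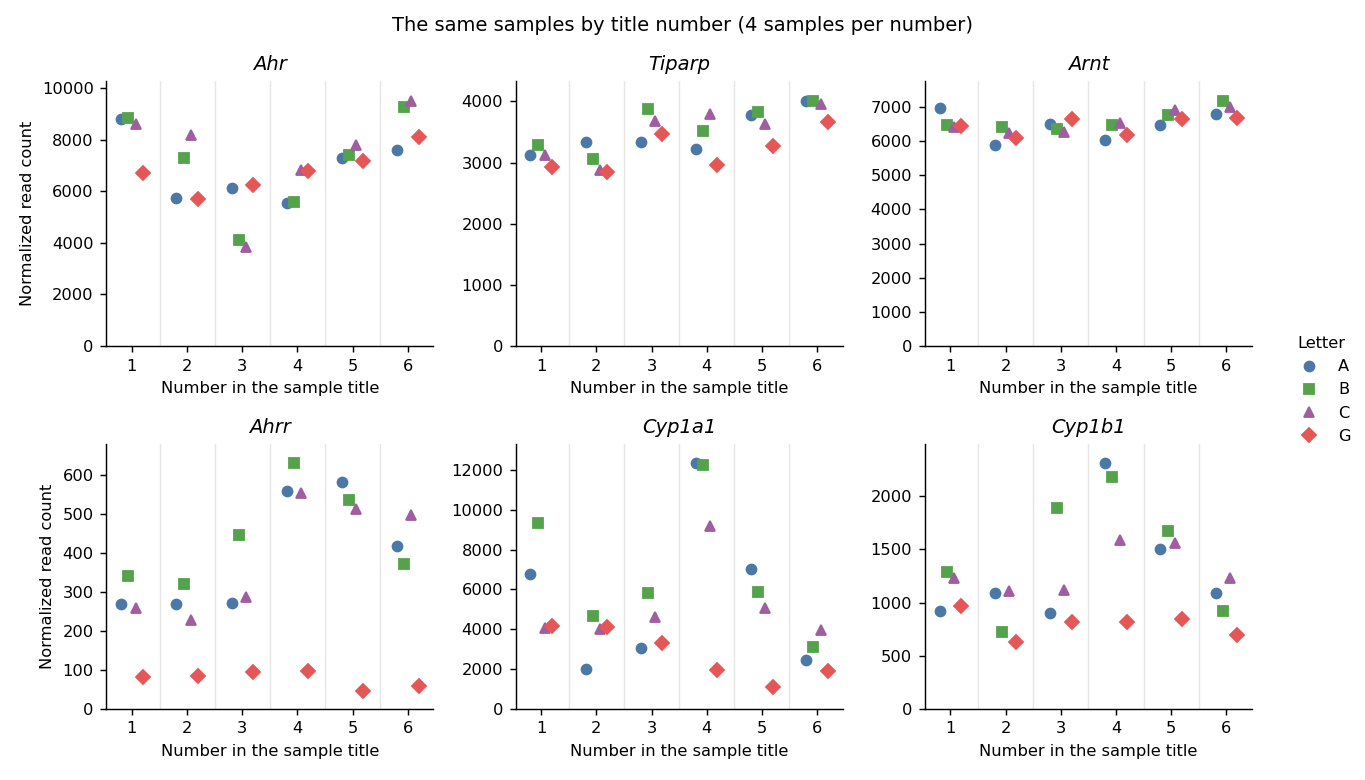
Normalized read counts (linear axes from 0) of 6 of the genes by title number, with 1 sample of each letter at each number. Tiparp is highest in number 6 for all 4 letters, at 3669 to 4012, and Cyp1a1 is highest in number 4 for A, B and C, at 9198 to 12331, but not for G, at 1956.

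Ahrr and the Cyp1 genes varied together over the samples of A, B and C. Pearson's r was computed on log2(normalized count + 1) for the 21 pairs of members over these 18 samples, leaving G apart because Ahrr separated it, with permutation p-values from 100000 resamples adjusted over the 21 pairs. Pearson's r passed for 8 pairs, all positive, and 7 of these passed by Spearman's rho as well. In the same samples 28.1% of all rows passed the test over numbers, and the share over all pairs of rows was not computed. The count is therefore not shown to be particular to these genes. Cyp1a1 and Cyp1a2 gave r = 0.988 and rho = 0.988 (adjusted p = 0.00021 for both, the smallest the resampling can give). Reads may have been divided uncertainly between these close paralogs, and the part of this in their correlation was not tested. The repressor varied with the enzymes, although its pairs with Cyp1a1 and Cyp1a2 did not pass without A4 and B4. Ahrr with Cyp1b1 gave r = 0.743 and rho = 0.717 (adjusted p = 0.00504 and 0.00777), with Cyp1a2 r = 0.610 and rho = 0.684 (0.0273 and 0.0084), and with Cyp1a1 r = 0.564 and rho = 0.612 (0.0410 and 0.0237).

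Cyp1b1 was correlated with Cyp1a2 at r = 0.685 and rho = 0.732 (adjusted permutation p = 0.0121 and 0.00777) and with Cyp1a1 at r = 0.672 and rho = 0.707 (0.0121 and 0.00777). Ahrr with Tiparp gave r = 0.608 and rho = 0.498 (0.0273 and 0.0891). Tiparp passed with no Cyp1 gene, at r = -0.10 for Cyp1a1, -0.06 for Cyp1a2 and 0.25 for Cyp1b1. The receptor and its partner, Ahr and Arnt, gave r = 0.601 and rho = 0.647 (0.0273 and 0.0150). Arnt with Tiparp gave r = 0.498 and rho = 0.531 and did not pass (adjusted permutation p = 0.0844 and 0.0657). No pair of Ahr with a target passed, with r from -0.36 for Cyp1b1 to -0.08 for Ahrr. Samples of equal number may be related, so the 18 may not be independent. Over the 6 means per number, 0 of 21 pairs passed and 4 had an unadjusted exact permutation p under 0.05, among them Ahrr with Cyp1b1 (r = 0.852, p = 0.0319), for which r was 0.244 without numbers 4 and 5.

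For each pair, leaving out the 2 samples farthest from the median of the first gene gave r = 0.984 for Cyp1a1 with Cyp1a2 and 0.722 for Ahrr with Cyp1b1. It gave 0.467 for Cyp1a1 with Cyp1b1 (without A4 and B4), 0.646 for Cyp1a2 with Cyp1b1, 0.537 for Ahrr with Cyp1a2, 0.489 for Ahrr with Cyp1a1, 0.570 for Ahrr with Tiparp and 0.670 for Ahr with Arnt.

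Without A4 and B4, the samples that stood apart, 3 of the 21 pairs passed. These were Cyp1a1 with Cyp1a2 (r = 0.984), Ahrr with Tiparp (r = 0.771, adjusted permutation p = 0.00882) and Ahrr with Cyp1b1 (r = 0.661, 0.0419). The other 5 lost their call. The r was 0.575 for Ahr with Arnt (adjusted permutation p = 0.104), 0.403 for Ahrr with Cyp1a1 (0.232) and 0.467 for Ahrr with Cyp1a2 (0.166). It was 0.467 for Cyp1a1 with Cyp1b1 (0.166) and 0.498 for Cyp1a2 with Cyp1b1 (0.166). Without A4, B4 and C4, an alternative chosen after seeing the data, 2 of the 21 pairs passed, Cyp1a1 with Cyp1a2 (r = 0.990) and Ahrr with Tiparp (r = 0.768). Ahr with Arnt then had r = 0.575 (adjusted permutation p = 0.131) and Ahrr with Cyp1b1 r = 0.625 (0.0916), while the remaining 4 called pairs lay between 0.305 and 0.451. Within single letters, r for Ahrr with Cyp1b1 was 0.842 in A, 0.857 in B and 0.825 in C (n = 6 each), with exact permutation p-values of 0.0333, 0.0389 and 0.050 before adjustment and 0.233, 0.408 and 0.210 after it.

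In the 6 samples of G, 0 of 21 pairs passed after adjustment, and 3 had an unadjusted exact permutation p under 0.05. Cyp1a1 with Cyp1a2 gave r = 0.921 and rho = 0.829 (exact p = 0.0125 and 0.0583). Ahrr with Cyp1a2 gave r = 0.917 and rho = 0.600 (exact p = 0.0250 and 0.242), and r was -0.43 without G5 and G6. Arnt with Tiparp gave r = 0.858 and rho = 0.943 (exact p = 0.0278 and 0.0167). Ahrr with Cyp1b1 gave r = 0.037 in G. The difference between G and the other letters in these correlations was not tested.

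**Figure D4:**
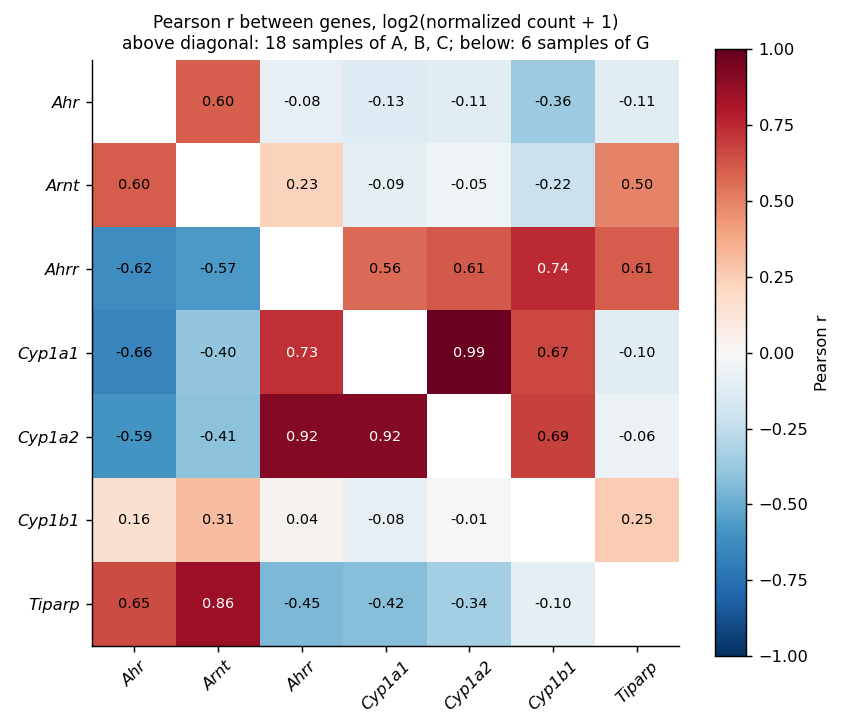
Pearson r between genes on the log2(normalized count + 1) scale, above the diagonal over the 18 samples of A, B and C and below it over the 6 samples of G. Above the diagonal, Ahrr and the 3 Cyp1 genes form a block from 0.56 to 0.99. Of this block, only Cyp1a1 with Cyp1a2 and Ahrr with Cyp1b1 passed without A4 and B4. Ahr has values below 0 with all 5 targets, but none of these passed. Without A4 and B4 those with Ahrr, Cyp1a1 and Cyp1a2 were just above 0, and those with Cyp1b1 and Tiparp stayed below it.

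Red blood cell genes moved with Ahrr. Their score, from 6 of 6 listed genes (the globins Hba-a1, Hba-a2, Hbb-bs and Hbb-bt with Alas2 and Slc4a1), ran from -1.24 to 1.81 in A, -0.89 to 1.63 in B, -1.39 to 1.75 in C and -1.76 to -0.18 in G. Their summed level ran from 156634 to 1083300 normalized counts in A, 192438 to 868540 in B, 161911 to 773864 in C and 126084 to 313644 in G, and none of the 6 genes had a mean under 1. Over the 18 samples of A, B and C, Ahrr was correlated with the score at r = 0.826 and rho = 0.827 (permutation p adjusted over 91 pairs of a member and a marker list, 0.00591 and 0.00637), and at r = 0.788 without A2 and C1. Over the 6 number means r was 0.980 (exact permutation p = 0.00556), and within G it was -0.47 (exact permutation p = 0.357). Among the 7 members within G, the score gave r = 0.957 with Tiparp (unadjusted exact permutation p = 0.00278) and 0.855 with Arnt (p = 0.0125). All 91 pairs were computed in G, and their p-values were not adjusted. Other pairs were also strong there, such as Ahr with alveolar type 2 genes (r = -0.910, unadjusted exact permutation p = 0.0111). The difference in these correlations between G and the other letters was not tested.

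With the score as a covariate, an alternative chosen after seeing the data, Ahrr remained lower in G, with log2 differences of -1.77, -2.08 and -1.79 in the same order (limma, adjusted p-values of 0.00215, 4.99e-05 and 0.00118). The differences of Cyp1b1 became -0.27, -0.48 and -0.38, those of Cyp1a1 -0.42, -0.96 and -0.57, and those of Cyp1a2 -0.41, -1.10 and -0.56. The test over numbers then gave an adjusted p of 0.794 for Ahrr, 0.000473 for Cyp1a1, 0.00272 for Cyp1a2 and 0.130 for Cyp1b1. The lowest scores in A, B and C were those of A2 (-1.24), B1 (-0.89) and C1 (-1.39). These samples had 267.9, 342.1 and 259.0 normalized counts of Ahrr. G6, with the highest score in G (-0.18), had 58.3. The fit gave all letters the same slope, although r was 0.826 over A, B and C and -0.47 in G. Whether red blood cell content accounts for the level of Ahrr in G was not tested. Of the 91 pairs 7 passed, and the share over all rows with these lists was not computed. The others were Ahrr with ciliated (r = 0.755) and club cell genes (0.692), Cyp1b1 with ciliated genes (0.749), Arnt with alveolar type 1 genes (0.758), and Tiparp with fibroblast (-0.68) and smooth muscle genes (-0.69). In the same 18 samples 28.1% of all rows passed the test over numbers, so these links are not shown to be particular to the members. The part of these marker genes in the differences between letters was not tested.

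**Figure D5:**
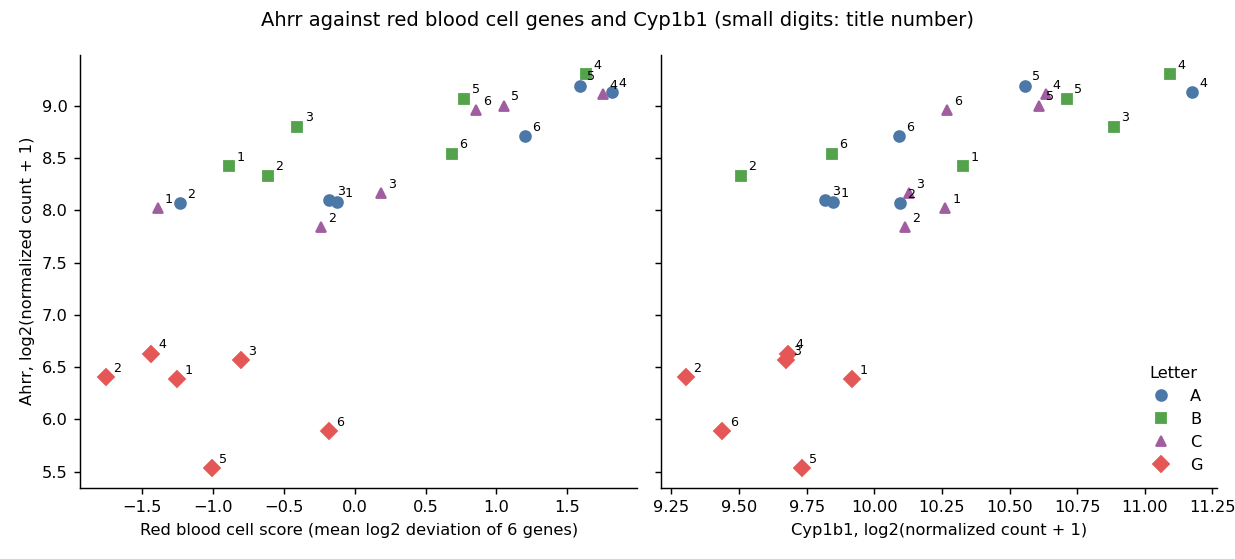
Ahrr on the log2(normalized count + 1) scale against the red blood cell score (left) and against Cyp1b1 (right), with 1 point per sample, the letter as colour and shape and the title number as a small digit. In A, B and C Ahrr is higher where either is higher (r = 0.826 and 0.743 over 18 samples), and the 6 G samples lie below all others at scores of -1.76 to -0.18.

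The rows most like each target were ranked by Pearson's r of deviations from letter means over the 24 samples, among 21915 other rows with a mean of at least 10. For Ahrr they were Triap1 (r = 0.785), 1700037H04Rik (0.780), Gm8268 (0.764) and Adipor1 (0.757). Over the values with letters left in, r for these 4 ranged from 0.302 to 0.576. For Cyp1a1 they were Dctn2 (0.828), Stk32b (0.794), Ror2 (0.776) and Asap1 (0.773), and for Cyp1b1 Sptb (0.832), which encodes the beta spectrin of red blood cells, Nphp4 (0.814), Islr2 (0.811) and Clca2 (0.797). For Tiparp they were Gsta2 (0.863), itself on the list of reported receptor targets, Lepr (0.843), Ptprr (0.836) and Slc43a3 (0.830). Gsta2 averaged only 13.2 normalized counts, and its mean was highest in G (15.9), where that of Tiparp was lowest. With letters left in, r was 0.538 to 0.855 for Cyp1a1, 0.291 to 0.830 for Cyp1b1 and 0.661 to 0.853 for Tiparp. These are descriptions over samples that share number and library, and the ranking chose the highest of many values.

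Of the other genes of the pathway, none was called by limma, fitted with letters alone, in the F test over letters or in any G contrast. Of 20 further genes of the receptor's battery and its reported targets, 19 were in the table. Against A, B and C, 12, 12 and 10 of the 19 had a difference below 0, with medians of -0.30, -0.12 and -0.04 on the log2 scale where the medians of all rows were -0.005, 0.0004 and -0.0004. Some of the 19 had low levels, as Gsta1, Serpinb2, Ido2 and Ido1 averaged 2.43, 5.40, 5.58 and 8.77 normalized counts. Nqo1, the quinone reductase induced by both the receptor and Nrf2, averaged 3132 ± 762 for A and 3306 ± 766 for B (SD, n = 6), and 3076 ± 491 for C and 2281 ± 169 for G. The log2 differences of G were -0.43, -0.51 and -0.42, with adjusted limma p-values of 0.441, 1.0 and 1.0. Nfe2l2, which encodes Nrf2, had log2 differences of -0.30, -0.17 and -0.20 and adjusted limma p-values of 0.301, 1.0 and 1.0. Nfkbia, the inhibitor of NF-kappa-B, lay the other way, at 15489 ± 2910 for A and 26700 ± 8413 for B (SD, n = 6), and 21899 ± 6002 for C and 33230 ± 6988 for G. Its log2 differences were 1.09, 0.35 and 0.62, with adjusted limma p-values of 0.0947, 1.0 and 1.0.

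The remaining lists showed no call between letters. Of the 15 genes of the receptor complex and its cofactors, such as Hsp90aa1, Crebbp and Ncoa2, 0 passed in each G contrast, with medians of 0.004, 0.02 and 0.002 on the log2 scale. Of 13 other bHLH-PAS genes, the receptor's structural family, 0 passed, with medians of 0.03, 0.04 and -0.001. Arntl and Npas2, which belong to the circadian clock, had log2 differences of 0.36, 0.36 and 0.39 and of 0.37, 0.34 and 0.31, with adjusted limma p of 0.650 and 0.616 against A. Of 16 partners in hydrocarbon metabolism 0 passed. The smallest F test p among them was that of Akr1b10, an aldo-keto reductase (0.0494 unadjusted), with log2 differences of -0.29, -0.40 and -0.19. Of 12 PARP relatives of Tiparp 0 passed. In the test over numbers, 11 of 19 battery genes, 6 of 15, 5 of 13, 10 of 16 and 6 of 12 passed, beside 31.5% of all rows.

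The genes next to the members in the rat annotation (RefSeq, GRCr8) did not share the low level of Ahrr. Pdcd6 and Exoc3, on either side of Ahrr, differed between G and the mean of the other letters by -0.03 and -0.11 on the log2 scale. Edc3 and Csk, which flank the pair Cyp1a1 and Cyp1a2, differed by -0.10 and -0.02, and Atl2 and Rmdn2, beside Cyp1b1, by 0.08 and -0.01. These are descriptions without a test.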

How the data were processed

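RNA from 24 rat lung samples was sequenced after mRNA isolation, per the labels' protocols. The deposited table holds 1 signal value, the authors' normalized read count, per gene and sample. The normalization method is not given in the sources used here, and the values are not whole, so no count model was used. The submitters' processing notes name STAR and GRCm38, a mouse build, with no role or order. Many rows carry mouse gene names, so reads lost to sequence differences would affect genes unequally, and strand is not stated. Depth before normalization is unknown.

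Values were analysed as log2(value + 1). limma 3.58.1 (R 4.3.3) with a trended prior was fitted to all 30667 rows and 24 samples with letter means, and the number was added for the test over numbers. Two-sided p-values were adjusted by the Benjamini-Hochberg method with a threshold of 0.05. The method was tested on simulated data with independent normal noise and without samples that stood apart. For the contrasts of letters these data also had no effects of number, so they do not show how the contrasts behave with such effects. The filter on means of at least 0.5 removed no row, as the lowest mean was 1.03. Correlations and ratios used permutation tests (scipy 1.17.1).

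The members were always named, with 4 most similar rows for each of 4 targets and up to 6 genes per pathway list by smallest F test p. The members and lists were chosen with earlier results of these data known. Same-numbered samples deviated together in every pair (r over 0.1 over 21922 genes) for B against A (0.169 to 0.590) and C against B (0.127 to 0.596) only, a hint from the data, since no label gives the numbers a meaning. Alternatives covered the pseudocount, filter, scaling, sample weights, samples in the fit, a replicate block and samples left out.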

Additional observations from a re-analysis of the deposited data

Results flagged for a closer look

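Cyp1a1 in C4 stood apart from the other samples of letter C, at 9198 normalized counts where the nearest other sample had 5067. The gap was 0.788 of the range of the letter's 6 samples, above Dixon's 95% limit of 0.625. With 28 groups of 1 gene and 1 letter examined, chance alone gives about 1.4 such cases. C4 also had the highest red blood cell score in its letter, 1.75, and A4 and B4 had the highest Cyp1a1 of theirs.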

How the results depend on the processing

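Ahrr was lower in G and called in all 36 settings run for each contrast, with log2 differences of -2.44 to -1.77 against A, -2.63 to -2.08 against B and -2.45 to -1.79 against C and largest adjusted limma p-values of 0.00853, 0.000354 and 0.0118. All 18 Ahrr ratio tests passed in every alternative. The counts of all genes called moved. In G against A (2), it was 5 with only the 12 samples of the pair and 1 without A4 and B4, without number 2 or without number 4, and 1 to 4 without single replicates. In G against B (1) it was 3 with sample weights and 1 to 2 without single replicates. In G against C (2) it was 1 with only the pair, without number 2, without number 4 or with the red blood cell covariate, and 1 to 2 without single replicates. Over letters (2) it was 1 with quantile normalization, with 75th percentile scaling, without A4 and B4, without number 2, without number 4 and with the covariate, and 1 to 2 without single replicates. Over numbers (9653) it was 6265 with the covariate. For number effects in G against A, B and C (34) it was 54 with a pseudocount of 0.1, 147 with weights, 15 without A4 and B4, 52 without number 2, 12 without number 4 and 16 with the covariate, and 15 (without G1) to 322 (without B2) without single replicates. The cause was not tested.

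With a replicate block on the title number, 391, 2, 11 and 12 genes were called in G against A, G against B, G against C and over letters, and Ahrr remained the 1 member called. Nfkbia, Nqo1 and Nfe2l2 were then called in G against A (limma, adjusted p-values of 0.00760, 0.0263 and 0.00760). Most same-numbered samples deviated together there, but not all. The r ran from -0.045 to 0.486 against A, 0.091 to 0.514 against B and 0.029 to 0.433 against C. It was over 0.1 for 4, 5 and 4 of the numbers in the same order. With the letter in the model, 31.5% of all rows differed among numbers over the 4 letters (limma F test, adjusted p under 0.05). Samples of equal number thus shared part of their variation, but no label says that the number pairs them. The block changed no call in B against A or C against B, where limma called 0 genes with and without it. Rows with an unadjusted p under 0.05 numbered 1099 and 558 without the block and 2405 and 788 with it. In G against A, B and C such rows numbered 2500, 1125 and 1235 without the block and 4648, 2283 and 2471 with it (limma, of 30667). Of the 7 members, 4 were among them in each of these contrasts without the block and 5 with it.

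Of 8 correlated pairs, 3 passed without A4 and B4, 2 without number 4 and 3 in residuals after the red blood cell score. Ahrr with Tiparp lost its call in within-letter deviations of all 24 samples (r = 0.377, adjusted permutation p = 0.164), and Ahrr with Cyp1a1 in those of A, B and C (r = 0.542, 0.0554). Arnt with Tiparp gained a call with quantile normalization (r = 0.597, adjusted permutation p = 0.0254). It also gained one in within-letter deviations of all 24 samples (r = 0.553, adjusted permutation p = 0.0137). The log2 differences of Cyp1a1, Cyp1a2 and Cyp1b1 kept their sign in 324 of 324 alternatives and were called in 0. Differences near 0 changed sign. For Arnt, G against A (0.0031) became -0.0075 with quantile normalization, -0.011 with weights, -0.016 without A4 and B4, -0.0064 without number 2 and -0.0032 without number 4, and ran from -0.022 to 0.026 without single replicates. With the covariate, its G against B and G against C became 0.0014 and 0.019. For Ahr, G against A became 0.024 with 75th percentile scaling and 0.0041 with the covariate, and -0.060 to 0.074 without single replicates. Its G against B became 0.019 with weights and 0.047 without number 2, and -0.17 to 0.067 without single replicates. Tiparp in G against A became 0.025 with the covariate. Depth before normalization is unknown and limits what low values show. A filter of 0.5 and no filter kept the same rows and so tested nothing.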
